A study of Mus musculus with 6 samples.

Results

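Rny1, Rny3 and Vaultrc5, the mouse Y RNAs and vault RNA, were followed in the RNA of extracellular vesicles (EVs). They were taken by symbol from the GENCODE M21 annotation and are 3 of the 47729 genes in the count files. EVs were collected from WEHI-231, a B lymphoma line of the mouse, after 1 h with the M1/69 anti-CD24 antibody or with a matched isotype control antibody, each at 10 µg/mL and each pre-incubated with a secondary antibody at 5 µg/mL. The question was whether stimulating CD24, a surface receptor that promotes the death of developing B cells, changed what the EVs carried. There were 3 isotype and 3 anti-CD24 libraries, all from this single cell line and with no untreated culture. EVs were captured with Vn96, a peptide that binds heat shock proteins on vesicles. The libraries were made from unfragmented RNA without rRNA depletion and sequenced on the IonTorrent PGM.

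Y RNAs are short cytoplasmic RNAs made by RNA polymerase III. Their ends pair into a stem that is bound by Ro60, a ring-shaped protein that also binds misfolded RNAs, and their 3′ run of U is bound by the La protein. Vault RNA is another short RNA polymerase III product and is a minor component of the vault, a large hollow ribonucleoprotein particle built mostly of the major vault protein. Both kinds of RNA are well known as EV cargo.

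The sequences of the Y RNAs are shown because the counts of each depend on whether a read can tell them apart. They are the GENCODE M21 transcripts on GRCm38, written 5′ to 3′ as DNA. Capitals mark the outermost helix, 8 base pairs in each, of the minimum free energy fold predicted by RNAfold.
Rny1: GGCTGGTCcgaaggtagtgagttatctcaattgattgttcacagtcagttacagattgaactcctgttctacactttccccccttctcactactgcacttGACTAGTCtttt
Rny3: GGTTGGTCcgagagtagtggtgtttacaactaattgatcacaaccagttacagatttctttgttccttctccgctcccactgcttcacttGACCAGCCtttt
Rny1 is 112 bases long and Rny3 102, and both end in a run of 4 T. The helices are built of nearly the same bases at both ends. Over their whole length, 81 of 112 aligned positions (72.3%) were identical. The longest stretch that they share exactly is cagttacagatt, 12 bases, from base 46 of Rny1 and base 45 of Rny3.

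Rny1 (ENSMUSG00000065701, chr6:47788069-47788180, minus strand) and Rny3 (ENSMUSG00000064945, chr6:47781624-47781725, plus strand) lie 6343 bases apart. Vaultrc5 (ENSMUSG00000065145, chr18:36801866-36802008, plus strand) is 143 bases long. All 3 are annotated as misc_RNA, are intergenic and overlap no other gene, the nearest being the pseudogene Rpl31-ps7 for the Y RNAs and Zmat2 for Vaultrc5. Transcripts of other genes with at least 30 bases at 90% identity on the same strand were found for Rny1 (3 genes) and for Vaultrc5 (1 gene, Gm25403), and for Rny3 there was none. The closest to Rny1, Gm26168, matched over 110 bases at 92.7% and had 2 counts in the 6 libraries together, against 391 for Rny1. The other matches, Gm25403 included, had 0. Few counts therefore lay on these near copies.

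The aligner could place a read at several equally good positions, so gene counts and their totals may hold a read more than once. Between 166129 and 794185 counts per library fell on genes, and 15626 to 112042 of them lay outside the rRNA and ribozyme genes, here called non-rRNA counts. At that depth, 3 counts correspond to 0.00268% to 0.0192% of the non-rRNA counts, well below each value given for the Y and vault RNAs. Only the biotypes rRNA and ribozyme were set aside, so mitochondrial rRNA genes and genes of the 45S rRNA locus remain among the non-rRNA counts. Without the genes of the 45S locus, anti-CD24 replicate 3 kept 50607 of 81426 such counts and anti-CD24 replicate 2 kept 93680 of 112042. Anti-CD24 replicate 2 had the lowest rRNA and ribozyme share, 84.8%, against 89.4% to 91.4% in the others. Anti-CD24 replicate 1 had 21.03% of its non-rRNA counts on snoRNA genes, against 1.66% to 5.92% elsewhere, and was the only library with counts of the globin genes Hba-a1 (13) and Hbb-bs (38). All isotype libraries carried barcode 1 and all anti-CD24 libraries barcode 2, so barcode and treatment cannot be told apart. Libraries with the same replicate number share a run name, and pairs by number are given as within-run values. A share of a library also cannot tell fewer vesicles carrying an RNA from less of it in each vesicle.

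All 3 RNAs were detected in every library, with 1411 counts in all. Rny3 was the most abundant with 778 counts, followed by Rny1 with 391 and Vaultrc5 with 242. By mean CPM (a gene's counts scaled to a common total of gene counts), they ranked 45th, 76th and 94th among the 9589 non-rRNA genes with a count. Together they took 0.0206% to 0.0896% of all counts and 0.228% to 0.666% of the non-rRNA counts. They made up 18.5% to 59.1% of the counts on misc_RNA genes, the class that also holds 7SL and 7SK.

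Rny3 had 104, 30 and 64 counts in isotype replicates 1, 2 and 3, and 76, 406 and 98 in the anti-CD24 replicates. As a share of non-rRNA counts these were 0.374% (95% Wilson interval 0.309% to 0.453%), 0.192% (0.135% to 0.274%) and 0.0928% (0.0727% to 0.119%) after isotype. After anti-CD24 they were 0.118% (0.0940% to 0.147%), 0.362% (0.329% to 0.399%) and 0.120% (0.0988% to 0.147%). Isotype replicate 1 and anti-CD24 replicate 2 stood highest, with intervals that overlap, and the other 4 libraries lay lower, so the high libraries came from different treatments and different runs. These intervals cover counting error only, as reads without molecular identifiers are not independent molecules.

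Rny1 had 44, 19 and 27 counts in the isotype replicates and 41, 198 and 62 in the anti-CD24 replicates. Its shares of non-rRNA counts were 0.158% (95% Wilson interval 0.118% to 0.212%), 0.122% (0.0779% to 0.190%) and 0.0392% (0.0269% to 0.0570%) after isotype. They were 0.0634% (0.0468% to 0.0861%), 0.177% (0.154% to 0.203%) and 0.0761% (0.0594% to 0.0976%) after anti-CD24. The same libraries as for Rny3 stood highest, and isotype replicate 3 was again the lowest. Between the lowest and the highest library the share differed 4.51-fold for Rny1 and 4.03-fold for Rny3.

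Vaultrc5 had 37, 12 and 66 counts in the isotype replicates and 37, 56 and 34 in the anti-CD24 replicates. Its shares of non-rRNA counts were 0.133% (95% Wilson interval 0.0966% to 0.183%), 0.0768% (0.0439% to 0.134%) and 0.0957% (0.0753% to 0.122%) after isotype. They were 0.0573% (0.0415% to 0.0789%), 0.050% (0.0385% to 0.0649%) and 0.0418% (0.0299% to 0.0583%) after anti-CD24. Each anti-CD24 library lay below each isotype library, although the interval of isotype replicate 2 overlaps those of all 3 anti-CD24 libraries. That of isotype replicate 3 overlaps the interval of anti-CD24 replicate 1. The library with the most Y RNA per non-rRNA count after anti-CD24, replicate 2, was not the highest for Vaultrc5.

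**Figure D1:**
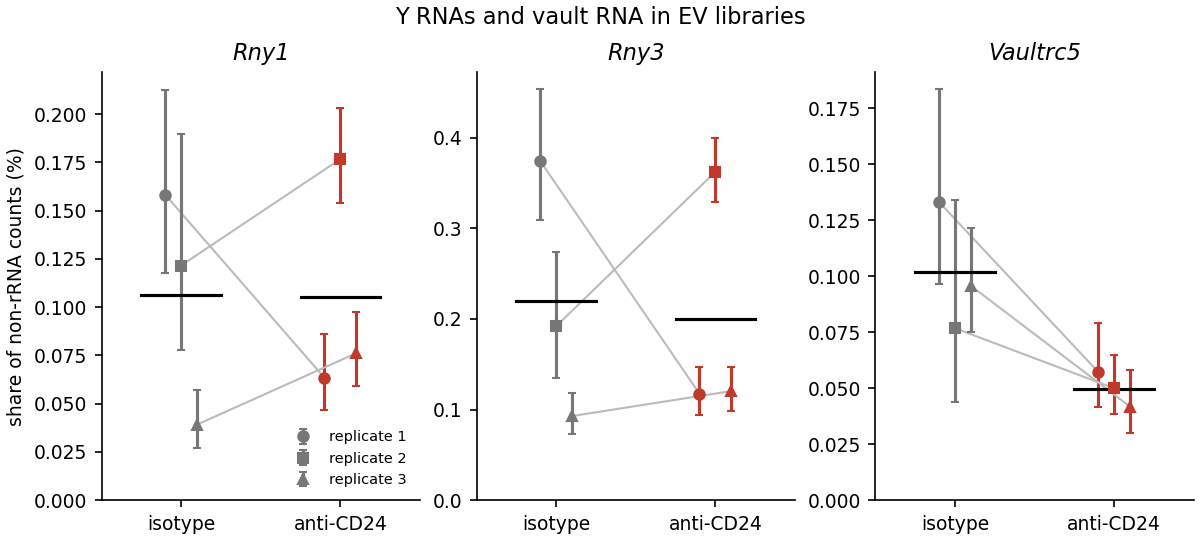
Share of non-rRNA counts (%, vertical axis, from 0) of Rny1, Rny3 and Vaultrc5 in the 3 isotype and 3 anti-CD24 libraries, with 95% Wilson intervals as error bars, black lines for group means and grey lines joining libraries of the same replicate number. The lines cross for the Y RNAs, while for Vaultrc5 all 3 run downwards, from 0.133%, 0.0768% and 0.0957% to 0.0573%, 0.050% and 0.0418%.

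The Y RNAs did not differ between treatments beyond the spread of the replicates. The share of Rny3 in the non-rRNA counts averaged 0.220% with an SD of 0.143 in the isotype libraries and 0.200% with an SD of 0.141 in the anti-CD24 libraries (n = 3 each, exact permutation p = 0.9). For Rny1 the shares were 0.106% ± 0.061 and 0.105% ± 0.062 (SD, n = 3 per group, exact permutation p = 1). Within the runs, Rny3 changed by -0.257, 0.170 and 0.0275 percentage points and Rny1 by -0.0949, 0.0551 and 0.0370, lower after anti-CD24 in run 1 and higher in runs 2 and 3. The direction of the group difference rested on single libraries. Without isotype replicate 1, for example, the difference of Rny3 was 0.0577 percentage points, and without anti-CD24 replicate 2 it was -0.101. Rny1 gave 0.0251 and -0.0366 with the same libraries left out.

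Vaultrc5 was lower after anti-CD24 on the non-rRNA scale, at 0.0497% ± 0.0078 (SD, n = 3) against 0.102% ± 0.029 (SD, n = 3) after isotype. The difference was -0.0522 percentage points, with within-run changes of -0.0759, -0.0268 and -0.0540, lower in 3 of 3 pairs. In the exact permutation test p was 0.1, the lowest value 3 samples against 3 allow, and 0.4 after Benjamini-Hochberg adjustment over the 4 shares tested. Flipping the signs of the run differences gave an exact p = 0.25, again the smallest possible. Groups that did not overlap in this direction were found for 9.51% of the 1419 non-rRNA genes tested, and the reverse for 3.88%. As 1 of 3 RNAs chosen by name, Vaultrc5 belongs to a pattern that many other genes show. As a share of all counts the groups overlapped, with 0.00911% ± 0.00217 after isotype and 0.00598% ± 0.00166 after anti-CD24 (SD, n = 3 per group, exact permutation p = 0.2), and the pair of run 2 changed by 0.000381 percentage points in the other direction. On that scale 6.53% of the 1501 genes tested had groups that did not overlap with anti-CD24 lower, and 5.73% with anti-CD24 higher. In run 2 the rRNA and ribozyme share was 90.6% after isotype and 84.8% after anti-CD24. A share of all counts is the non-rRNA share times the non-rRNA part of the library. The pair of run 2 could therefore rise on this scale while it fell on the other. Why the rRNA and ribozyme share differed was not tested.

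As shares of all counts, the Y RNAs were higher on average after anti-CD24. Rny3 had 0.0196% ± 0.0120 after isotype and 0.0266% ± 0.0247 after anti-CD24, and Rny1 0.00954% ± 0.00532 and 0.0138% ± 0.0113 (SD, n = 3 per group, exact permutation p = 0.8 for both). Anti-CD24 replicate 2 decided this direction. Without it the differences were -0.00717 percentage points for Rny3 and -0.00228 for Rny1. The sum of the 3 RNAs took 0.428% ± 0.221 and 0.355% ± 0.203 of the non-rRNA counts after isotype and anti-CD24 (SD, n = 3 per group, exact permutation p = 0.7).

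The test across genes gave no call for any of the 3 RNAs. Its fold changes of the Y RNAs were positive. Their mean non-rRNA shares differed by -0.000922 (Rny1) and -0.0196 (Rny3) percentage points. The fold changes used TMM scaling factors, which ran from 0.512 (anti-CD24 replicate 3) to 1.37 (anti-CD24 replicate 2), and the shares did not. Why the directions differed was not tested. All 3 RNAs passed the filter of 1.0 CPM in at least 3 libraries. The log2 fold change of anti-CD24 over isotype was 0.72 for Rny1 (standard error 0.83, 95% interval -0.91 to 2.35, edgeR quasi-likelihood test, adjusted p = 0.72). It was 0.54 for Rny3 (standard error 0.79, 95% interval -1.004 to 2.07, adjusted p = 0.79) and -0.41 for Vaultrc5 (standard error 0.86, 95% interval -2.11 to 1.28, adjusted p = 0.85), both from the same quasi-likelihood test. Of the 1501 genes tested, 0.0666% were called, and 0 of the 3 RNAs were among them. Their groups also overlapped in TMM-scaled CPM, where 15.9% of the genes tested had groups that did not. The intervals of the Y RNAs hold log2 rises of up to 2.35 and 2.07 and that of Vaultrc5 a log2 fall to -2.11. At this depth and spread, true changes up to that size in those directions were therefore not excluded. Single libraries decided the direction for the Y RNAs. Without anti-CD24 replicate 2 the log2 fold changes were -0.061 for Rny1 and -0.39 for Rny3, and without isotype replicate 3 Rny3 was at -0.11. That of Vaultrc5 ranged from -0.99 without isotype replicate 2 to -0.083 without anti-CD24 replicate 1. Without anti-CD24 replicate 1, the library with the snoRNA and globin counts, Rny1 and Rny3 were at 1.48 and 1.34 (edgeR adjusted p = 0.35 for both). Their 95% intervals were -0.0005 to 2.96 and -0.009 to 2.68 (edgeR unadjusted p = 0.0501 and 0.0516). In that fit 47 genes were called, none of the 3 RNAs among them. The sign also depended on scaling. With DESeq2's size factors the log2 fold change was 0.09 for Rny1, -0.094 for Rny3 and -1.04 for Vaultrc5 (DESeq2 adjusted p = 0.99, 0.99 and 0.81), and with the rRNA and ribozyme genes removed before normalization it was 1.31, 1.14 and 0.03. The median over all genes tested was -0.29 in the quasi-likelihood fit, -0.97 with DESeq2 and -0.08 without the rRNA and ribozyme genes. Relative to these medians, Rny1 stood at 1.02, 1.06 and 1.39, Rny3 at 0.83, 0.88 and 1.22, and Vaultrc5 at -0.12, -0.07 and 0.11.

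**Figure D2:**
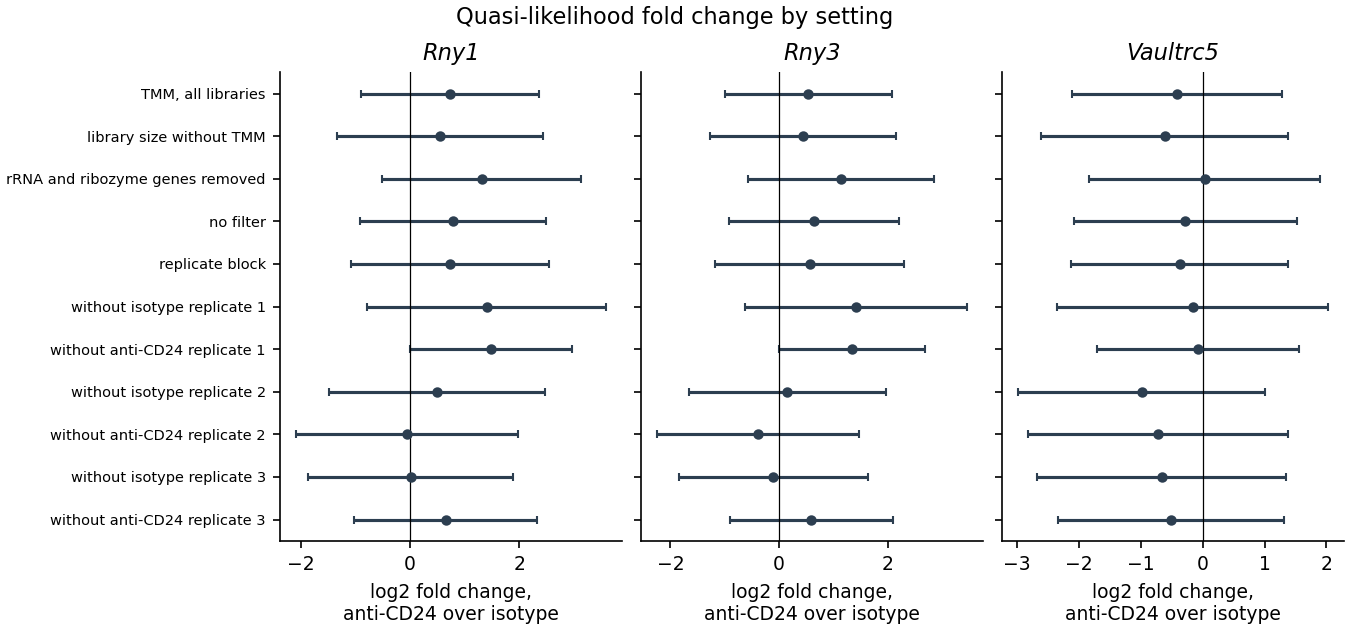
Log2 fold change of anti-CD24 over isotype (horizontal axis) with 95% intervals from edgeR's quasi-likelihood fit for Rny1, Rny3 and Vaultrc5, one row for each normalization, filter, block or omitted library. Every interval includes 0. Those of the Y RNAs without anti-CD24 replicate 1 do so only at their lower ends, -0.0005 for Rny1 and -0.009 for Rny3. The points of the Y RNAs run from -0.061 to 1.48 for Rny1 and from -0.39 to 1.42 for Rny3.

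What held across libraries was the proportion of the Y RNAs to each other. Rny1 made up 29.7% (95% Wilson interval 22.95% to 37.5%), 38.8% (26.4% to 52.8%) and 29.7% (21.3% to 39.7%) of the Rny1 and Rny3 counts in the isotype replicates. It made up 35.0% (26.998% to 44.04%), 32.8% (29.2% to 36.6%) and 38.8% (31.5% to 46.5%) in the anti-CD24 replicates. All 6 intervals include the pooled value of 33.4%, from 1169 counts. Anti-CD24 replicate 2 supplied 604 of these, so the pooled value leans on it, and the intervals of the smaller libraries are wide. The chi-square over the 6 libraries was 0.880 per degree of freedom, where counting error alone gives about 1, although the non-rRNA shares of each Y RNA varied more than 4-fold. The group means were 32.7% ± 5.2 and 35.5% ± 3.0 (SD, n = 3 per group, exact permutation p = 0.6).

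The proportion of Y RNA to vault RNA did vary. There were 4, 4.08 and 1.38 Y RNA counts per Vaultrc5 count in the isotype replicates and 3.16, 10.8 and 4.71 in the anti-CD24 replicates. Isotype replicate 3 was lowest, anti-CD24 replicate 2 highest, and the other 4 libraries lay between 3.16 and 4.71. The log2 ratio was higher by 0.95 after anti-CD24 (exact permutation test, p = 0.4), with within-run changes of -0.34, 1.43 and 1.76. It was higher by 0.44 without isotype replicate 3 and by 0.46 without anti-CD24 replicate 2. This ratio was chosen after the counts had been seen. Unlike the shares, it does not depend on the library total or the rRNA content.

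**Figure D3:**
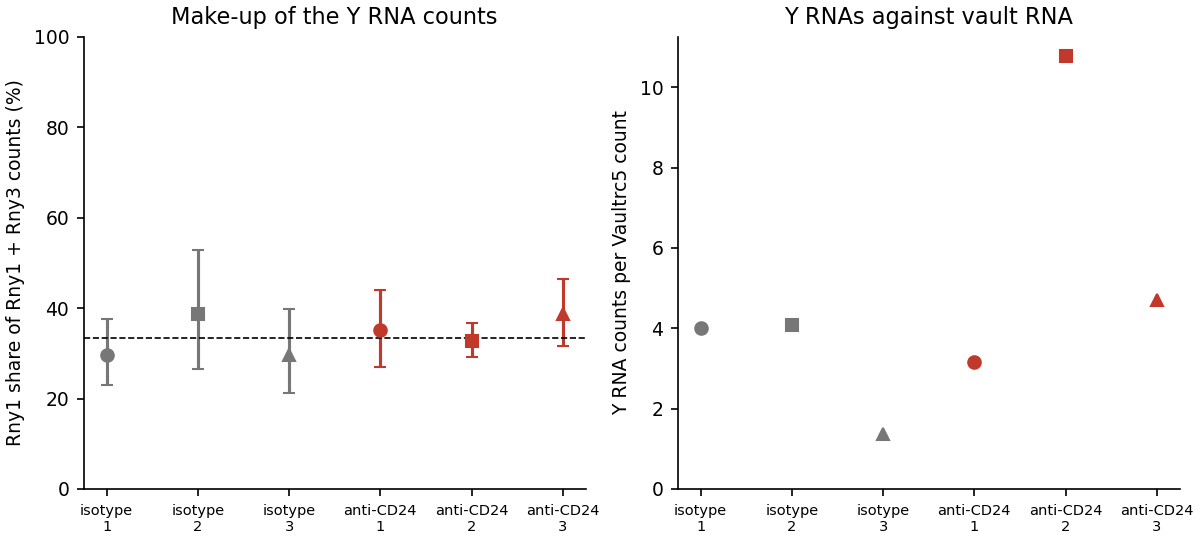
Left, Rny1 as a share of the Rny1 and Rny3 counts (%, 0 to 100) in each library, with 95% Wilson intervals and a dashed line at the pooled 33.4%. Right, Y RNA counts per Vaultrc5 count in each library, where isotype replicate 3 lies at 1.38 and anti-CD24 replicate 2 at 10.8, with the other libraries between 3.16 and 4.71.

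The levels of the 3 RNAs were next compared with each other and with other small RNA polymerase III products on 1 scale, CPM per kilobase of exon. Rny3 was at 2265 ± 1743 (SD, n = 6), Rny1 at 1042 ± 737 and Vaultrc5 at 528 ± 170. Rny3 was above Rny1 in 6 of 6 libraries, by 1.73- to 2.60-fold, and above Vaultrc5 in 6 of 6, by 1.36- to 10.2-fold (exact sign-flip test, p = 0.031 for both, the smallest that 6 libraries allow, and 0.036 after Benjamini-Hochberg adjustment over 7 pairs). Rny1 was above Vaultrc5 in 5 of 6 libraries, isotype replicate 3 being the exception (exact sign-flip test, p = 0.094, also after adjustment). Vaultrc5 had the smallest spread of the 3, with a coefficient of variation over the 6 libraries of 32.2% in its share of all counts, against 70.8% for Rny1 and 77.0% for Rny3. On the non-rRNA scale the coefficients were closer, at 45.2%, 52.0% and 60.6%.

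7SL, the RNA of the signal recognition particle, was taken at Rn7s2, its copy with the highest mean. Rn7s2 had 39 to 207 counts per library and Rn7s1 38 to 204, nearly the same counts in each library, so the copies were not added. On the same per-length scale, 7SL stood at 733 ± 245, Rpph1, the RNA of RNase P, at 624 ± 244, Rmrp, the RNA of RNase MRP, at 565 ± 163, and 7SK, which holds a transcription elongation factor inactive, at 98.0 ± 44.9 (SD, n = 6 each). The 3 Y and vault RNAs summed to 3835 ± 2528 and were above each of the 4 in 6 of 6 libraries (exact sign-flip test, p = 0.031 each, 0.036 after adjustment). The median ratio was 4.37 to 7SL, 5.86 to Rpph1, 6.45 to Rmrp and 44.9 to 7SK. This sets a sum of 3 RNAs against single ones, which favours the sum. Singly, Rny3 (2265) and Rny1 (1042) had higher means than all 4, and Vaultrc5 (528) a higher mean than 7SK only. Rny3 alone was not tested against the 4. Of the neighbours in the order of levels, Rny1 and 7SL (p = 0.50) and Vaultrc5 and Rmrp (p = 0.59) did not pass the exact sign-flip test. Vaultrc5 was above 7SK in 6 of 6 libraries, by 3.47- to 9.52-fold (exact sign-flip test, p = 0.031, and 0.094 after adjustment over these 3 pairs, which were chosen after the order was seen).

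RNA was not fragmented, so a longer RNA need not give more reads, and dividing by length favours the short Y RNAs. On CPM without length, Rny3 was at 231 ± 178, 7SL at 220 ± 73, Rpph1 at 199 ± 78, Rmrp at 153 ± 44, Rny1 at 117 ± 83, Vaultrc5 at 75.5 ± 24.3 and 7SK at 32.4 ± 14.9 (SD, n = 6 each). Rny3 remained above Rny1 in 6 of 6 libraries on this scale (exact sign-flip test, p = 0.031, and 0.063 after adjustment over 10 pairs). The sum of the 3 was above Rpph1 and 7SK in 6 of 6 libraries, above Rmrp in 5 and above 7SL in 4.

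**Figure D4:**
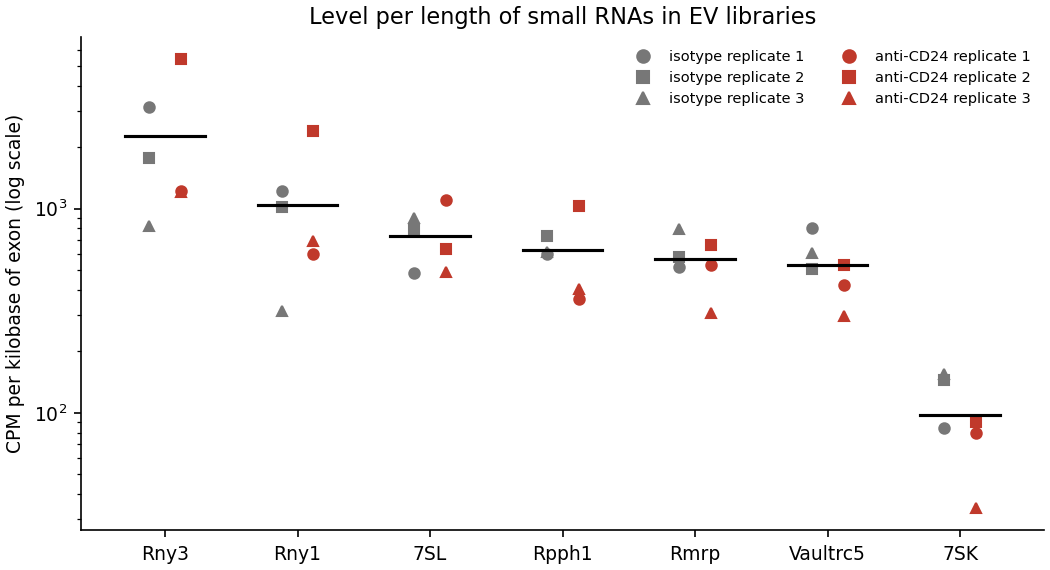
CPM per kilobase of exon (log axis) of 7 small RNAs in the 6 libraries, isotype in grey and anti-CD24 in red, with a black line at the mean. Rny3 has the highest mean (2265), Vaultrc5 (528) lies with Rmrp (565) and Rpph1 (624), and 7SK (98.0) is lowest.

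Relative to these RNAs, the sum of the Y and vault RNAs showed no difference between treatments that stood clear of the replicate spread. The exact tests, with a smallest p of 0.1, could not pass whatever the values. The difference against 7SK stayed positive with each library left out (0.58 to 1.73), but 7SK had only 8 to 39 counts per library. The log2 ratio to 7SK was 3.05 ± 1.16 after isotype and 4.15 ± 0.84 after anti-CD24 (SD, n = 3 per group, exact permutation p = 0.2, and 0.7 after adjustment over 4 ratios). For 7SL, Rpph1 and Rmrp the differences were 0.12, 0.41 and 0.49 (exact permutation test, p = 0.7, 0.5 and 0.6). All 4 ratios were lower after anti-CD24 in run 1 and higher in runs 2 and 3. Without anti-CD24 replicate 1, the library with the globin and snoRNA counts, the differences were 0.75 for 7SL, 1.57 for 7SK, 0.43 for Rpph1 and 0.87 for Rmrp (exact permutation test, p = 0.4, 0.2, 0.6 and 0.4). Each difference was smaller or reversed without isotype replicate 3 or anti-CD24 replicate 2. Without the former they were -0.44, 0.58, 0.063 and -0.068 in the same order, and without the latter -0.56, 0.75, 0.27 and 0.12. Without isotype replicate 1 they were 0.74, 1.73, 0.82 and 0.98.

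Over the 6 libraries, the Y RNAs had profiles close to each other and to some mitochondrial tRNAs. Vaultrc5 had a flatter profile with no gene close to it relative to its own spread. Likeness was measured as the root-mean-square difference of centred log2 CPM, over the 201 other tested genes with a mean count of at least 20. For Rny1, the gene with the smallest difference was Rny3 (0.23), followed by the mitochondrial tRNA genes mt-Ts1 (0.30) and mt-Ta (0.30), for serine and alanine. For Rny3 the order was mt-Tq, the mitochondrial tRNA for glutamine (0.23), Rny1 (0.23) and mt-Ts1 (0.31). The median difference was 0.80 for Rny1 and 0.83 for Rny3, and the root-mean-square spread of each around its own mean was 0.74. In counts, mt-Tq had 180, 60 and 132 in the isotype replicates and 178, 1108 and 173 in the anti-CD24 replicates, high in anti-CD24 replicate 2 as the Y RNAs were.

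For Vaultrc5, the nearest were Rmrp (0.34), the 5.8S rRNA gene n-R5-8s1 (0.43) and Rpph1 (0.46), with a median of 0.97. Its own root-mean-square spread was only 0.39, so n-R5-8s1 and Rpph1 differed from it by more than a flat line would and Rmrp by little less. Rny3 came 43rd and Rny1 88th in its list. The counts of Rmrp were 45, 26 and 164 in the isotype replicates and 88, 133 and 66 in the anti-CD24 replicates. In scaled log2 CPM relative to the mean, Rmrp was highest in isotype replicate 3 (0.73) and low in isotype replicate 1 (-0.22), while Vaultrc5 was highest in isotype replicate 1 (0.50), followed by isotype replicate 3 (0.44). These profiles rest on 6 libraries, and all genes of a library share its depth, rRNA content and scaling factor. The likeness is a description of these libraries.

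**Figure D5:**
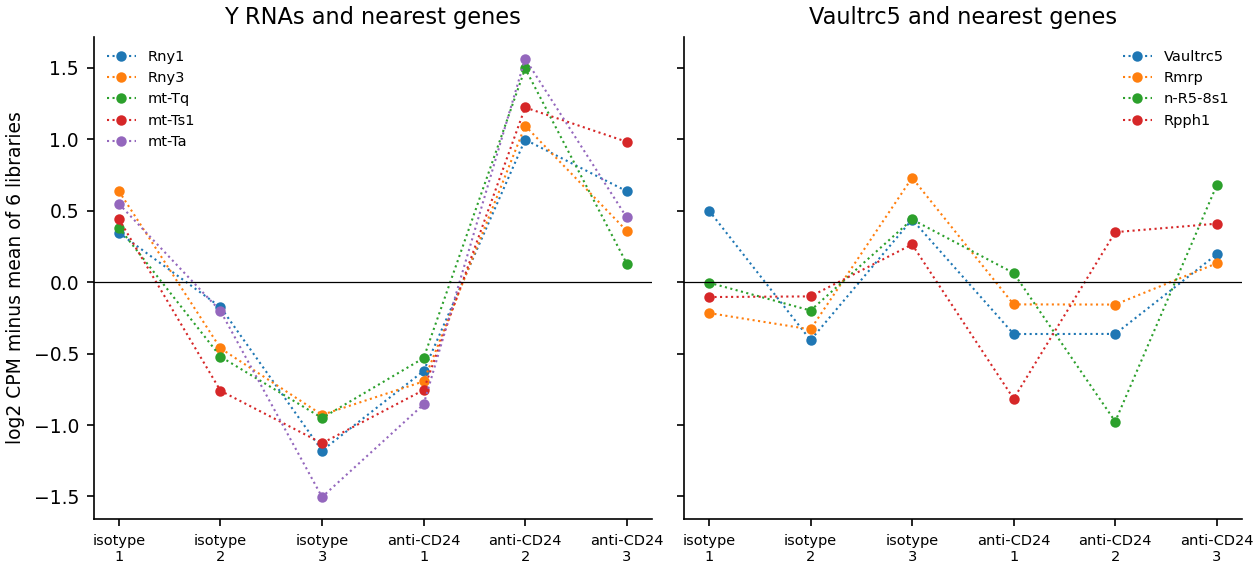
Log2 CPM of each gene minus its mean over the 6 libraries (vertical axis), with dotted lines to guide the eye between libraries, which have no order. Left, Rny1 and Rny3 with mt-Tq, mt-Ts1 and mt-Ta, all highest in anti-CD24 replicate 2 and lowest in isotype replicate 3. Right, Vaultrc5 with Rmrp, n-R5-8s1 and Rpph1, where Vaultrc5 stands at -0.36 in anti-CD24 replicate 2.

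The mRNAs of proteins that bind these RNAs had few counts, in libraries where all protein-coding genes together had only 2436 to 10659 counts each. Of 13 such genes, 8 had a count, 32 in all, while 9700 of all 47729 genes had a count in any library. The defining partners Trove2, which encodes Ro60, Ssb, which encodes La, Mvp, the major vault protein, and Parp4, its associated poly(ADP-ribose) polymerase, had 0 counts in each library, and Tep1, a further vault protein, had 1. Binders with counts in 3 libraries were Ptbp1 (7 counts in all), Puf60 (3) and Ybx1 (6), which acts in sorting small RNAs into exosomes. Of the 13, 3 were tested and 0 were called, where 0.0666% of all genes tested were. Their log2 fold changes had a median of -0.12, against -0.29 over all genes. An mRNA at 0 says nothing of its protein.

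Among 10 B cell marker genes, 9 had a count and the sum was 0 to 20 counts per isotype library and 7 to 13 per anti-CD24 library. Ighm, the IgM heavy chain, had 23 counts in all. T cell markers had 0 counts. The macrophage markers Lyz2 and Csf1r had 3 counts in anti-CD24 replicate 1 and 4 in anti-CD24 replicate 2, and Adgre1 had 0. The erythroid gene Alas2 had 0 counts, and the 51 globin counts lay in anti-CD24 replicate 1, where the Y RNAs were not high.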

How the data were processed

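RNA of EVs from WEHI-231 cells was measured in 6 samples, grouped by the treatment in their labels. The authors used the FASTX toolkit for trimming and tmap for alignment, counted reads by strand with htseq-count (HTSeq 0.5.4p5) on Ensembl exons and deposited raw counts per gene. The build is GRCm38, as patch p4 in the labels and p5 in the methods. The 5 summary lines per file, such as unaligned reads and reads on no gene, held 25.9% to 64.9% of all counts in a file. They were left out of gene totals. GENCODE M21 gave symbols, biotypes and lengths, and 419 of 47729 genes were not in it. Culture medium held vesicle-depleted bovine serum, and gene counts do not carry the species of a read.

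Shares were tested with exact permutation (smallest p 0.1) and sign-flip tests (smallest p 0.25 for 3 pairs), all two-sided. The test across genes was that of edgeR 4.0.16, run in R 4.3.3 (quasi-likelihood, TMM, 1.0 CPM in 3 samples, Benjamini-Hochberg at 0.05). Standard errors were derived from the F statistic, as the absolute log2 fold change divided by its root. The script was tested on simulated data first, with 200 genes changed 16-fold up or down. At the median dispersion of these data (0.592, the spread between replicates in edgeR), 57.5% of them were called, with 1 false call. At a dispersion of 0.1, 97.5% were called, with 4 false calls. Smaller changes were not simulated. Ratios had 0.5 added to both counts. Similar transcripts were sought with BLAST+ 2.17.0, and folds predicted with RNAfold 2.7.2 from ViennaRNA. DESeq2 1.42.0, Python 3.11.15, numpy 2.4.6, pandas 2.3.3 and scipy 1.17.1 were also used.

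The named genes were the 3 RNAs, the comparison RNAs, protein partners with a count in 3 samples, sequence matches with a count and the 3 nearest genes by profile (prior count of 2). Others were named after their values were seen. The 3 RNAs and all lists were chosen with earlier results of these data known. Alternatives were other denominators, scalings, filters, tests, the replicate block and each library left out. Replicate numbers pair libraries of a run by the run names of the files. Deviations from group means of log2 CPM in same-numbered libraries correlated at -0.046, -0.021 and -0.14.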

Additional observations from a re-analysis of the deposited data

How the results depend on the processing

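No test of Rny1, Rny3 or Vaultrc5 between treatments passed its threshold under any setting tried. With 3 samples against 3 the exact tests give no p below 0.1, so no share or ratio was able to pass whatever the values. The non-rRNA share of Vaultrc5 without mitochondrial genes differed by -0.0808 percentage points (exact permutation p = 0.1). Of 78 values under other settings, 66 kept direction and side of the threshold, and of 168 with a library left out, 104 did. These tallies also hold levels per length and numbers of genes called. For shares and ratios only the direction was free to change, so the tallies do not measure stability. Direction reversed in 5 and 18 values. With a library left out, 42 levels per length moved above the threshold, as 5 libraries cannot give p under 0.0625. Causes were not tested unless given.

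The non-rRNA share of Rny1, which differed by -0.000922 percentage points, differed by 0.00228 without mitochondrial genes and by 0.00331 without snoRNA genes. Without the genes of the 45S rRNA locus the differences were -0.000299 for Rny1, -0.0265 for Rny3 and -0.0697 for Vaultrc5. The log2 fold change of Rny3 was -0.094 with DESeq2, and that of Vaultrc5 was 0.03 with rRNA and ribozyme genes removed. edgeR called 1 gene (119 at unadjusted p under 0.05), 2 without the filter and 0 with the replicate block, and DESeq2 called 0 (95 at unadjusted p under 0.05). On CPM without length, chosen after seeing the data, the difference from Vaultrc5 was 155.6 for Rny3 (exact sign-flip test, p = 0.063), the sum of the 3 exceeded 7SL by 203 (p = 0.19) and Rmrp by 270.1 (p = 0.063), Rny1 minus 7SL was -103 (p = 0.16), and Vaultrc5 minus Rmrp was -77.6 (p = 0.031).

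With each library left out in turn, the difference in share of all counts ran from -0.00228 to 0.00781 percentage points for Rny1, -0.00717 to 0.0142 for Rny3 and -0.0134 to 0.0192 for the sum, all negative without anti-CD24 replicate 2, and the sum also without isotype replicate 3 (-0.000623). In non-rRNA shares it ran from -0.0366 to 0.0251, -0.101 to 0.0577 and -0.190 to 0.0462. The log2 fold change ran from -0.061 to 1.48 for Rny1, -0.39 to 1.42 for Rny3 and -0.99 to -0.083 for Vaultrc5, and the genes called from 0 to 47, the latter without anti-CD24 replicate 1. The log2 ratio of the sum differed by -0.56 to 0.75 against 7SL, -0.068 to 0.98 against Rmrp, 0.063 to 0.82 against Rpph1 and 0.58 to 1.73 against 7SK, and that of the Y RNAs to Vaultrc5 by 0.44 to 1.34. The level per length of Rny3 exceeded Rny1 by 867 to 1366 and Vaultrc5 by 1110 to 2041. That of the sum exceeded 7SL by 2182 to 3554, 7SK by 2835 to 4167, Rpph1 by 2391 to 3627.5 and Rmrp by 2390 to 3734, and that of Vaultrc5 exceeded 7SK by 372 to 463. With 5 libraries the sign-flip test cannot go below 0.0625.

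The replicate block left the log2 fold changes at 0.73, 0.57 and -0.37 for Rny1, Rny3 and Vaultrc5 (edgeR adjusted p = 0.99 each) and changed no call of theirs.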
